A study of Mus musculus with 36 samples.

Results

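The genes described here encode voltage-gated sodium (Nav), calcium (Cav) and potassium (Kv) channels, their auxiliary subunits and the hyperpolarization-activated HCN channels. They are 39 of the 52636 genes in a table of expression from the mouse anterior cingulate cortex (aCC), a frontal cortical area. They were taken by name from a list of channel genes that leaves out the Kv4 channels and their partner proteins, and measured levels played no part in the rule. All 39 passed the filter on low values that left 25572 genes for testing.

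The study asked what reduced Brd1 does to depression-like behaviour and brain gene expression in female mice, and whether an antidepressant reverses it. Brd1 encodes a bromodomain scaffold protein of histone acetyltransferase complexes. RNA was sequenced from punches of the right aCC of 36 female mice of 8 to 11 weeks, with 1 library per mouse. Per the labels all mice were of the line C57BL/6NTac-Brd1, and by the study's methods wild type (WT) and Brd1+/- mice were litter-matched.

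Of the libraries, 8 came from WT mice given saline (WT vehicle), 9 from Brd1+/- mice given saline (Brd1+/- vehicle), 10 from WT mice given the tricyclic antidepressant imipramine (IMN) at 10 mg/kg (WT IMN) and 9 from Brd1+/- mice given the same dose (Brd1+/- IMN). Brd1+/- mice carry 1 allele with a deletion inside Brd1 and 1 intact allele in every cell. Mice of all groups, vehicle included, were injected and put through behavioural tests that ended in a forced swim before the brains were taken, so no group was unhandled. A punch holds neurons and glia together.

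Voltage-gated channels open when the membrane potential changes. Nav channels drive the upstroke of the action potential, Cav channels admit the calcium that releases transmitter and signals to the nucleus, Kv channels repolarize the cell, and HCN channels open on hyperpolarization and pace rhythmic firing. Auxiliary subunits (Nav beta, Cav beta, alpha2delta) set where the pores sit and how they gate. In cortex, fast-spiking inhibitory interneurons are known for Kv3 channels and for Scn1a.

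The members differ in the DNA around their starts. RefSeq promoter windows (300 bases, most of them ahead of the start, build GRCm38.p6) were matched by symbol for 29 of the 39 genes, in 43 windows. The motif GGGCGG, the GC box bound by Sp factors, was searched on both strands, as was TGACG, the CRE half-site, and the motifs may overlap each other. GGGCGG was in 48.8% of the members' windows and in 35.7% of all 32851 windows, and TGACG in 20.9% and 20.8%. The median GC content of the windows was 65.3% for the members and 52.7% for all. The windows below are shown because these genes had the closest shared variation between mice described further on, and capitals mark either motif. A match is a description of letters and not a binding site.
Scn1a, chr2:66440788-66441087, minus strand: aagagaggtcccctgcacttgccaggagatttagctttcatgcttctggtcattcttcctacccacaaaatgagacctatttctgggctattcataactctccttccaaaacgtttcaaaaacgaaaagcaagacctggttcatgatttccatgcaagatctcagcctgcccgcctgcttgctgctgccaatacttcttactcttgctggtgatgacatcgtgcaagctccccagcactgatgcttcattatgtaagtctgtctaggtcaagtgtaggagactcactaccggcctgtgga
Kcnc1, chr7:46396218-46396517, plus strand: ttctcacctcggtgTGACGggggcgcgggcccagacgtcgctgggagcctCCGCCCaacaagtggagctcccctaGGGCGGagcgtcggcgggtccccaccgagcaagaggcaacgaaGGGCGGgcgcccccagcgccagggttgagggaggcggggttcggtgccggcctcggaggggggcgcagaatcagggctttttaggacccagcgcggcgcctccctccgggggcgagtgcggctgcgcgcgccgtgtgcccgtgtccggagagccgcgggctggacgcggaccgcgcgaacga
Hcn2, chr10:79716384-79716683, plus strand: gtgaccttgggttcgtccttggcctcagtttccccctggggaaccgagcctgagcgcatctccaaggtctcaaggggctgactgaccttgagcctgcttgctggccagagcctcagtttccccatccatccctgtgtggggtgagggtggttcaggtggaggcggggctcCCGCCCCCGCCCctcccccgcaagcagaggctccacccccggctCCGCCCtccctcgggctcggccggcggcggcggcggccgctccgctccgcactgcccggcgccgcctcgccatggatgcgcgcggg
Scn4b, chr9:45138374-45138673, plus strand: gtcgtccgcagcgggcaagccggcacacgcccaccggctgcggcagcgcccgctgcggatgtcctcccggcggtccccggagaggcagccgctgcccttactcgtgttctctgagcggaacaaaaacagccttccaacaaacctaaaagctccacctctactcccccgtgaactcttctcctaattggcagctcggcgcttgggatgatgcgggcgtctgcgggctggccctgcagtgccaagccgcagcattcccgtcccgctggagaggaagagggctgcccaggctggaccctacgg

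The Scn1a window had 47.3% GC, 5 CpG dinucleotides and no copy of either motif. The Kcnc1 window had 74.7% GC, 41 CpG dinucleotides, 3 copies of GGGCGG and 1 of TGACG. The Hcn2 window held 3 copies of GGGCGG, and the Scn4b window none, at 72.3% and 66.3% GC. The 2 genes with the strongest correlation of all members, Scn1a and Kcnc1, thus have windows at opposite ends of base composition among these 4.

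Levels are given in TPM, the authors' unit, a share of the library's transcripts per transcript length, which can be compared between genes. Over the 36 libraries the members' mean levels ran from 2.01 TPM for Hcn4 to 170.3 TPM for Cacnb3, with a median of 38.1 TPM against 4.65 TPM for all genes tested. Of the 39, 35 averaged at least 10 TPM and 4 at least 100 TPM, namely Cacnb3, Cacnb1 (132.9), Cacna1g (118.2) and Cacna1a (112.3). All members but Hcn4 thus lay above the median tested gene.

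Among the sodium channel pores, Scn2a, prominent in excitatory neurons, averaged 91.4 TPM and Scn8a, the pore of nodes and initial segments, 89.8 TPM. Scn1a averaged 33.5 TPM and Scn3a, best known from the embryonic brain, 11.2 TPM. The Nav beta subunits, single-span proteins that modulate the pores, ran from 79.1 TPM for Scn2b to 20.6 TPM for Scn4b, which carries the peptide known for resurgent current. The L-type pores Cacna1d and Cacna1c averaged 38.2 and 18.4 TPM. In Cav2, which supplies calcium for transmitter release, Cacna1a (P/Q-type) was highest at 112.3 TPM and Cacna1e (R-type) lowest at 32.6 TPM. In Cav3, the T-type channels that open near rest, Cacna1g was highest at 118.2 TPM and Cacna1i lowest at 29.9 TPM. The Cav beta subunits, which carry pores to the membrane, had the highest sum of mean levels of any subfamily, 405.9 TPM, with Cacnb3 highest at 170.3 TPM and Cacnb2 lowest at 34.8 TPM. In alpha2delta, the extracellular subunits that gabapentinoids bind in Cacna2d1 and Cacna2d2, Cacna2d1 averaged 83.5 TPM and Cacna2d2 14.3 TPM.

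Potassium channel genes spanned a similar range. Kv1, the low-threshold channels of axons, ran from 45.2 TPM for Kcna2 to 7.24 TPM for Kcna4. Kcnb2, the sole Kv2 member here, averaged 6.06 TPM. In Kv3, which allows fast firing, Kcnc1 was highest at 60.3 TPM and Kcnc2 lowest at 46.6 TPM, a narrow range. Kv7, the M-current channels, had Kcnq5 at 46.4 TPM and Kcnq3 at 38.1 TPM. In the ether-à-go-go family (Kv10-12), Kcnh3, a forebrain gene, averaged 96.7 TPM and Kcnh5 9.90 TPM. Of the HCN genes, Hcn2 averaged 67.7 TPM, Hcn3 10.5 TPM and Hcn4 2.01 TPM.

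**Figure D1:**
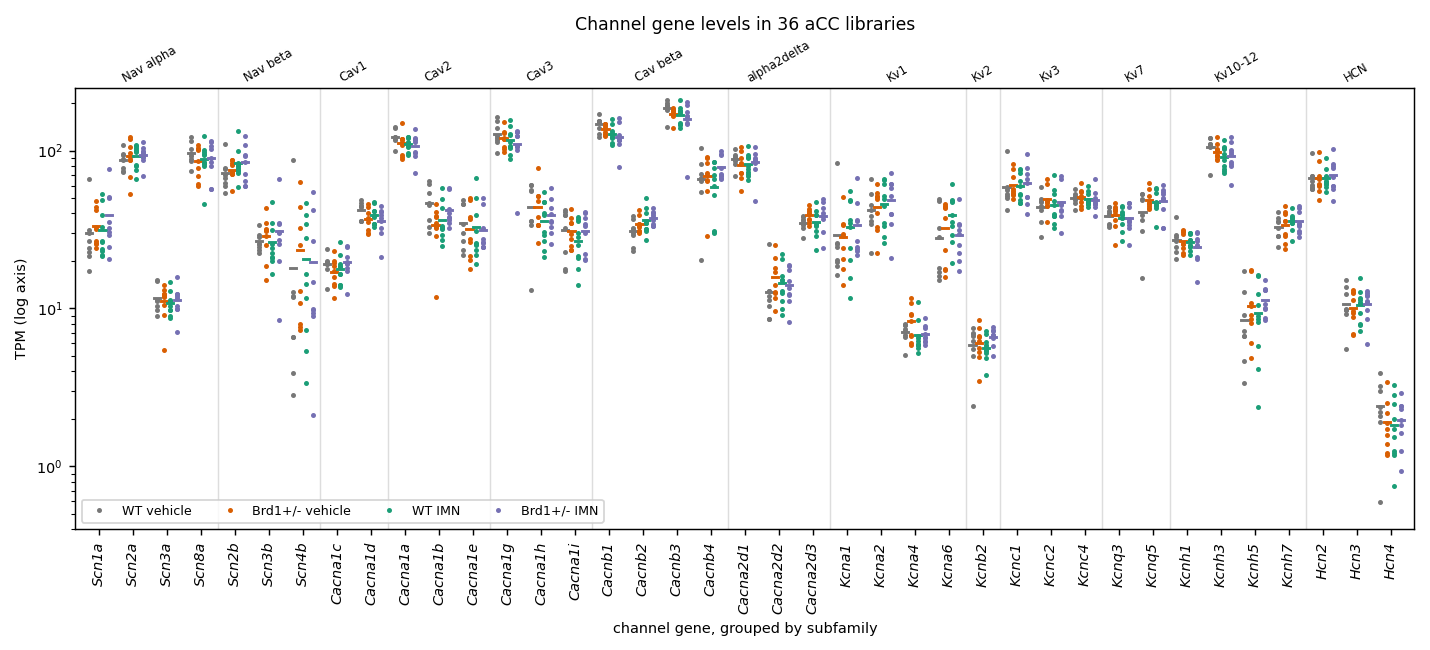
TPM of each channel gene (log axis) in each of 36 aCC libraries, 1 point per mouse, coloured by group, with the group mean as a short line and subfamilies separated by grey lines. The 4 groups overlap for every gene, and Scn4b spans the widest range, 2.11 to 86.8 TPM.

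The next question is how much mice of 1 group differed in these genes. The SD of log2(TPM + 0.5) within groups had a median of 0.32 over the members, against 0.24 for the 14831 tested genes in the members' range of levels and 0.27 for all tested genes. It was largest for Scn4b (1.29), Kcna1 (0.64), Kcnh5 (0.63), Kcna6 (0.57) and Cacnb4 (0.53), and smallest for Kcnc4 (0.17), Cacnb1 (0.19) and Cacnb2 (0.21).

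Several libraries stood apart before any comparison. WT vehicle replicate 1 held the highest value of all 36 for 7 members and the lowest for 6, with an oligodendrocyte marker score (mean log2(TPM + 0.5) of 10 marker genes) of 7.00 where its group's median was 4.36. Brd1+/- IMN replicate 6 held the highest value for 4 members and the lowest for 9, with an oligodendrocyte score of 7.29. The highest oligodendrocyte score, 7.39, was that of WT IMN replicate 7, which held the highest value for 1 member and the lowest for 3. In Brd1+/- vehicle replicate 6 the score of 12 striatal markers was 6.02, with 3.54 the highest in the other libraries, and that of 6 choroid plexus markers 5.69, with 0.74 the highest elsewhere. Among the members this last library was above all others for Kcna4 (11.6 TPM) and below all others for Kcnh7 (23.8 TPM), and inside the range for the other 37. Cortical neuron markers were high in every library (scores 7.82 to 8.56); their genes define the labelled tissue.

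Brd1 itself, the targeted gene, was lower in Brd1+/- than in WT mice by a log2 difference of -0.54 ± 0.07 (SE, limma, adjusted p = 2.83e-05, both treatments pooled), and by -0.64 ± 0.09 with vehicle alone (adjusted p = 0.0620). Throughout, limma is a linear model across all 25572 genes with Benjamini-Hochberg adjustment, two-sided, and a log2 fold change is on the log2(TPM + 0.5) scale.

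The comparison of genotypes under vehicle asked what the Brd1 deletion does to channel genes. None of the 39 members passed an adjusted p under 0.05 (0.00% of all genes did), and 2 had an unadjusted p under 0.05, 5.13% of the members against 3.75% of all genes. The median log2 fold change was 0.03 over the members and -0.02 over all genes, with 23 members above 0 and 16 below. In bulk tissue, a gene carried by fewer cells and a gene with less RNA per cell cannot be told apart.

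Cacna1b, the N-type pore of presynaptic terminals, had the larger of these 2 differences. Its level ran from 30.1 to 64.5 TPM (median 45.9) in WT vehicle and from 11.7 to 46.2 TPM (median 34.5) in Brd1+/- vehicle. The groups overlapped, and the lowest value came from 1 Brd1+/- vehicle mouse, replicate 7, with the rest of that group at 28.6 TPM or more. The log2 fold change was -0.48 ± 0.22 (SE, limma unadjusted p = 0.0428, adjusted p = 1.00, exact permutation p = 0.0465), and -0.31 without replicate 7 (adjusted p = 0.962).

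Cacna2d3, an alpha2delta subunit, ran from 27.7 to 38.3 TPM (median 35.5) in WT vehicle and from 33.4 to 45.5 TPM (median 39.6) in Brd1+/- vehicle. The log2 fold change was 0.17 ± 0.07 (SE, limma unadjusted p = 0.0370, adjusted p = 1.00, exact permutation p = 0.0311). The next smallest unadjusted p belonged to Cacna1d (-0.19, p = 0.0659), Cacnb3 (-0.13, p = 0.0947) and Kcnq5 (0.33, p = 0.0968), the last with a log2 fold change of 0.15 without WT vehicle replicate 2. None of these 5 passed the adjustment.

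Under IMN, Brd1+/- mice were compared with WT mice, and again no member passed the adjusted test (0.00% of all genes), while 2 had an unadjusted p under 0.05, 5.13% against 3.23% of all genes. Cacnb4, a Cav beta subunit of cortex and cerebellum, ran from 30.1 to 84.4 TPM (median 63.1) in WT IMN and from 66.3 to 98.9 TPM (median 70.8) in Brd1+/- IMN. The lowest WT IMN mice lay below every Brd1+/- IMN mouse, and the upper ones overlapped that group. The log2 fold change was 0.51 ± 0.20 (SE, limma unadjusted p = 0.0184, adjusted p = 1.00, exact permutation p = 0.0306).

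Kcnb2, a delayed rectifier, was the other, at 3.81 to 7.16 TPM (median 5.56) in WT IMN and 5.00 to 7.65 TPM (median 6.75) in Brd1+/- IMN. The difference on the log2 scale was 0.23 ± 0.10 (SE, limma unadjusted p = 0.0380, adjusted p = 1.00, exact permutation p = 0.0298). Kcna6 (-0.39), Kcnh5 (0.43) and Cacna1b (0.23) followed, with unadjusted p of 0.0630, 0.122 and 0.144, and without WT IMN replicate 7 the value of Kcnh5 was 0.25. The mean of Cacna1b thus lay below WT with vehicle and above WT under IMN.

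That pattern was tested directly as the genotype by IMN interaction. No member passed the adjusted test (0.00% of all genes), and Cacna1b was the 1 member with an unadjusted p under 0.05, 2.56% of the members against 3.20% of all genes. Its interaction was 0.71 ± 0.27 on the log2 scale (SE, limma unadjusted p = 0.0132, adjusted p = 1.00). Brd1+/- vehicle replicate 7, the lowest mouse for Cacna1b, enters this estimate, and the interaction was not refitted without it. It was refitted only without WT vehicle replicate 1 or without Brd1+/- vehicle replicate 6 (0.69 to 0.71). Group means of Cacna1b were 46.4 ± 12.9 TPM for WT and 33.7 ± 9.73 TPM for Brd1+/- mice with vehicle (SD, n = 8 and 9), and 36.2 ± 10.6 and 41.8 ± 9.35 TPM under IMN (n = 10 and 9). With vehicle, the distance between the genotype means was below the SD of the WT mice and above that of the Brd1+/- mice. Under IMN, it was below the SD of each genotype. The 2 comparisons of genotype and of treatment that enter the interaction share their libraries and are no separate support.

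IMN was then compared with vehicle within each genotype. In Brd1+/- mice no member had an unadjusted p under 0.05, against 5.52% of all genes, and the smallest was 0.0682 for Cacnb2 (0.14 ± 0.07, limma adjusted p = 0.920). In WT mice 2 members did, 5.13% against 6.60% of all genes, and none passed the adjusted test (0.00%). In Brd1+/- mice the adjusted test called 0.00782% of all genes and no member.

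Cacnb1, the Cav beta subunit also found in muscle, ran from 121.9 to 171.4 TPM (median 152.4) in WT vehicle and from 108.4 to 157.2 TPM (median 126.4) in WT IMN. Its log2 fold change was -0.20 ± 0.08 (SE, limma unadjusted p = 0.0191, adjusted p = 0.671, exact permutation p = 0.0240). Kcna6, a Kv1 channel, ran from 15.1 to 49.1 TPM (median 23.1) in WT vehicle and from 19.5 to 61.4 TPM (median 37.2) in WT IMN, with log2 fold change 0.54 ± 0.26 (SE, limma unadjusted p = 0.0460, adjusted p = 0.752, exact permutation p = 0.0681).

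Pooling the genotypes gave the most precise view of IMN. The adjusted test called 0.274% of all genes and no member, and 3 members had an unadjusted p under 0.05, 7.69% against 9.38% of all genes. The median log2 fold change was -0.02 over the members and -0.00 over all genes, with 19 members above 0 and 20 below. Most members thus had no difference that these mice could resolve, with a median SE of 0.10.

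The 3 were 2 Cav beta subunits with opposite signs and 1 Kv channel. Cacnb1 averaged 146.7 ± 16.1 TPM in WT vehicle and 136.7 ± 9.95 in Brd1+/- vehicle, against 128.1 ± 15.0 in WT IMN and 122.1 ± 23.6 in Brd1+/- IMN (SD). Its log2 fold change was -0.19 ± 0.06 (SE, limma unadjusted p = 0.00439, adjusted p = 0.229, permutation p = 0.00416), the smallest p of any member in any of the 7 comparisons. The values of the groups overlapped throughout.

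Cacnb2, a subunit shared with heart, averaged 30.7 ± 5.32 and 34.1 ± 4.07 TPM in WT and Brd1+/- vehicle, against 36.2 ± 6.76 and 37.6 ± 3.60 under IMN (SD). Its log2 fold change was 0.18 ± 0.07 (SE, limma unadjusted p = 0.0103, adjusted p = 0.320, permutation p = 0.0103). Kcnh3 averaged 106.0 ± 15.7 and 98.6 ± 11.3 TPM with vehicle, against 91.3 ± 15.3 and 92.7 ± 18.4 under IMN (SD). Its log2 fold change was -0.16 ± 0.08 (SE, limma unadjusted p = 0.0452, adjusted p = 0.513, permutation p = 0.0503). Kcna4 (-0.15) and Cacnb3 (-0.15) followed, with unadjusted p of 0.0878 and 0.0888.

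The score of 10 immediate-early genes, which neurons switch on within minutes of activity, moved with this contrast. It averaged 6.13 ± 0.47 and 6.12 ± 0.24 in WT and Brd1+/- vehicle and 5.63 ± 0.26 and 5.57 ± 0.39 in WT and Brd1+/- IMN (SD). Within groups its r was 0.66 with Cacnb1 and 0.66 with Kcnh3, which were lower under IMN as the score was. With Cacnb2, which was higher under IMN, r was also positive at 0.37 and did not pass the adjusted test (permutation, adjusted p = 0.0855). The part of the score in these differences was not tested. Exons of Cacnb1, Cacnb2 and Kcnh3 overlap a gene on the opposite strand, as do those of 12 members in all, and strand use in the authors' quantification is not stated.

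**Figure D2:**
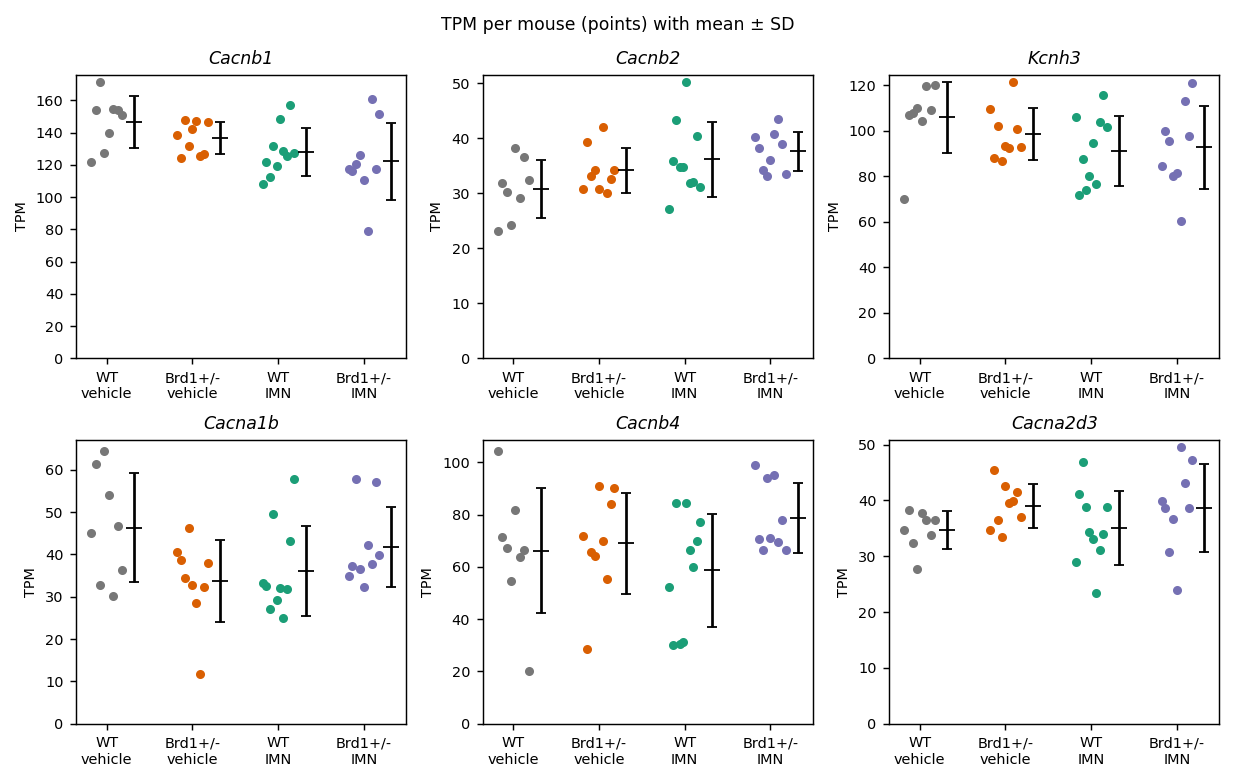
TPM per mouse (points) in the 4 groups for Cacnb1, Cacnb2, Kcnh3, Cacna1b, Cacnb4 and Cacna2d3, with the mean and SD (bars, n = 8, 9, 10 and 9) beside the points. Cacnb1 averages 146.7 TPM in WT vehicle and 122.1 TPM in Brd1+/- IMN, and points of all groups overlap in each panel.

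Pooled over treatments, Brd1 was the only gene called at the adjusted level between genotypes (0.00391% of all genes). Of the members, Cacna1d, an L-type pore, had an unadjusted p under 0.05, 2.56% of the members against 3.62% of all genes. It averaged 41.9 ± 5.30 and 38.9 ± 5.22 TPM in WT vehicle and WT IMN, against 36.7 ± 5.81 and 35.8 ± 7.06 in the Brd1+/- groups (SD). The pooled log2 fold change was -0.16 ± 0.08 (SE, limma unadjusted p = 0.0394, adjusted p = 0.999, permutation p = 0.0421). Cacna2d3 (0.15), Kcnh5 (0.37), Cacnb4 (0.32) and Cacnb2 (0.11) followed, with unadjusted p from 0.0586 to 0.104.

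**Figure D3:**
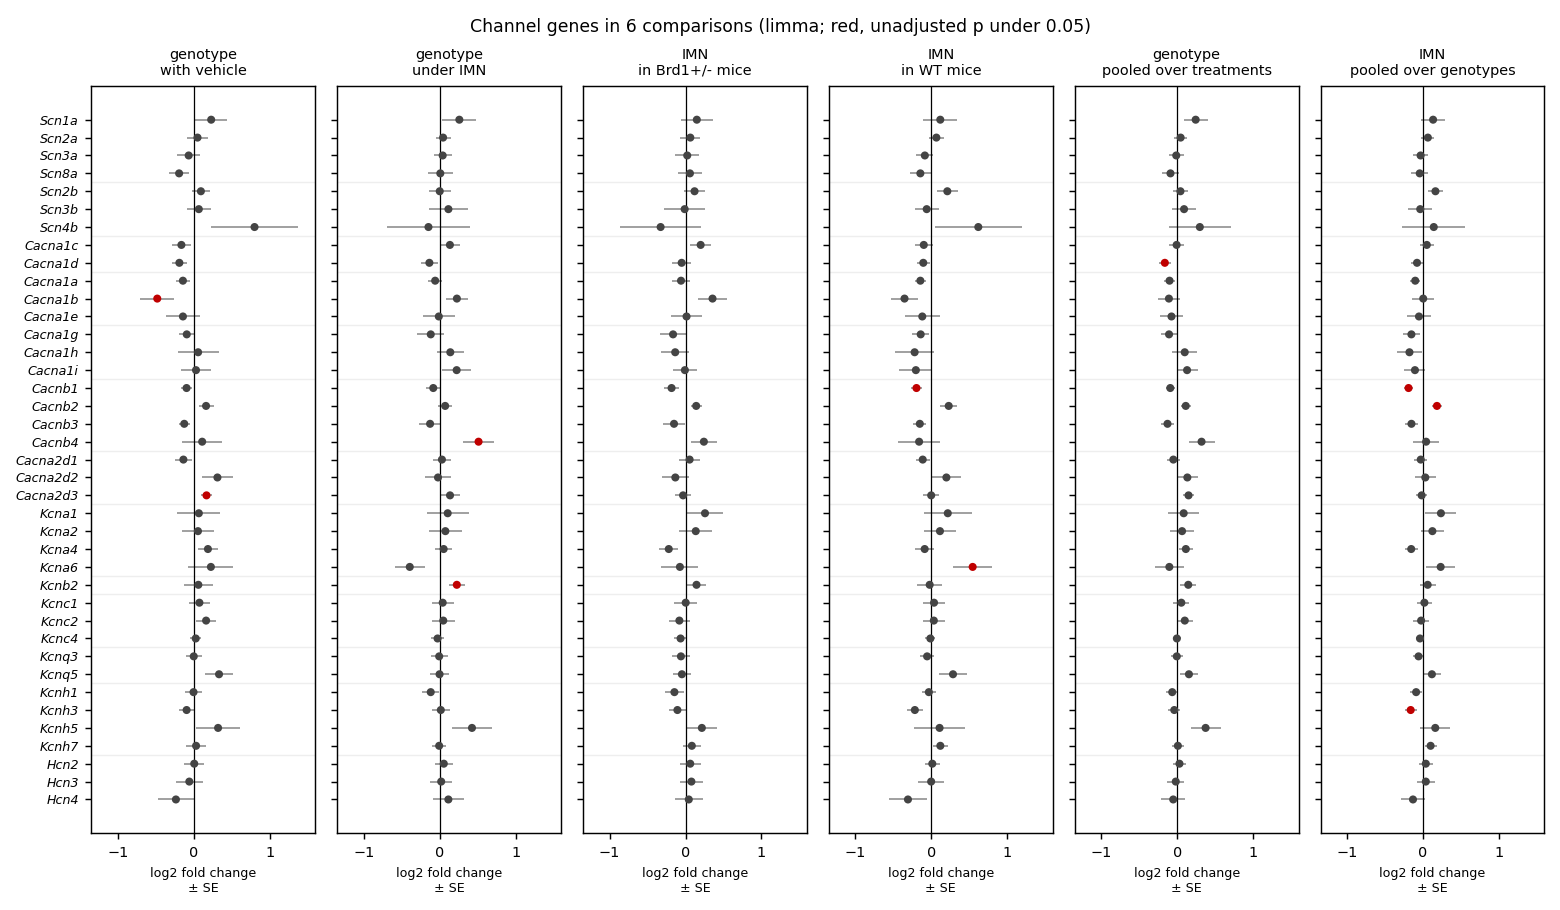
Log2 fold change on the log2(TPM + 0.5) scale (point) with its limma SE (line) for the 39 channel genes, grouped by subfamily, in 6 comparisons, with red for an unadjusted p under 0.05. Points lie on both sides of 0 in each panel, red points number 2, 2, 0, 2, 1 and 3 from left to right, and Scn4b has the widest SE.

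A single mouse changed these counts. Without WT vehicle replicate 1, 8 members had an unadjusted p under 0.05 between genotypes with vehicle (20.5%, against 6.61% of all genes), and 9 in the comparison of IMN in WT mice (23.1% against 10.6%). None passed the adjusted test in either, with smallest adjusted p of 0.644 and 0.262. The library left out held the highest value for 7 members and the lowest for 6. Its removal thus narrows the WT vehicle range of those genes, and the higher shares are no test of the members as a set. Both comparisons use the same remaining WT vehicle mice, so their counts are not separate. The 8 were Scn1a, Scn4b, Cacna2d2 and Cacna2d3, higher in Brd1+/- mice, and Cacnb1, Cacnb3, Kcnh3 and Hcn4, lower. For Scn4b the log2 fold change moved from 0.80 ± 0.57 to 1.24 ± 0.46 (SE), and for Scn1a from 0.23 ± 0.21 to 0.40 ± 0.16. The pooled IMN count became 7 (17.9% against 11.3%), with Cacnb1 at -0.21 ± 0.06 (limma adjusted p = 0.132). Without Brd1+/- vehicle replicate 6 no member had an unadjusted p under 0.05 between genotypes with vehicle, against 3.86% of all genes, nor between genotypes pooled over treatments (3.65%).

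Some members varied together across individual mice, and others did not. Each member's deviation from its group mean was correlated with the deviations of 4 marker scores over the 36 mice, 156 relations in all, with permutation within groups and Benjamini-Hochberg adjustment over the 156. A relation is counted where the adjusted p passed 0.05 both for Pearson's r and for Spearman's rho. Many points share technical features of a library, such as its punch, so a correlation is a description of shared variation.

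With the interneuron score (Gad1, Gad2, Pvalb, Sst, Vip, Lhx6 and Slc32a1) 10 members correlated positively and 6 negatively. A correlation of at least 0.5 in size was found for 13 of the 39 members, 33.3%, against 10% of all genes. For this score and those below, the share over all genes is not matched for level. The median level was 38.1 TPM for the members and 4.65 TPM for all tested genes. What level adds to these shares was not tested. By sign, 10 members had an r of at least 0.5 (4.15% of all genes), and 3 an r of at most -0.5 (5.86% of all genes). The negative side was thus near the share over all genes. The strongest were Scn4b (r = 0.84, rho = 0.87), Kcnc1 (r = 0.84, rho = 0.85), Hcn2 (r = 0.83, rho = 0.89) and Scn1a (r = 0.77, rho = 0.75), each with an adjusted permutation p of at most 0.000240. Without the 2 mice farthest from the median score r was 0.85, 0.86, 0.87 and 0.77. Within single groups r ran from 0.57 to 0.94 over these 4 genes.

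The other positive relations were those of Cacna2d2 (r = 0.71), Cacna2d3 (0.63), Kcna2 (0.62), Kcnc2 (0.61), Scn2b (0.55) and Kcna1 (0.51). The Kv3 genes Kcnc1 and Kcnc2 are known from fast-spiking interneurons, and Kcna1, Kcna2, Scn1a and Scn2b from axons. Kcnc4, the remaining Kv3 gene, was not among the relations with this score. Nor were the Kv1 genes Kcna4 and Kcna6, or Scn8a, the pore of nodes and initial segments. Negative relations were found for Scn3a (r = -0.68), Cacna1c (-0.62), Hcn4 (-0.58), Cacna2d1 (-0.46), Cacna1g (-0.42) and Cacnb3 (-0.38). The 6 negative relations became 3 without WT vehicle replicate 1, and also 3 without Brd1+/- IMN replicate 6.

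With the oligodendrocyte score 7 members correlated positively and 7 negatively, and again 13 of the 39, 33.3%, reached 0.5 in size against 11.4% of all genes. The lowest r of any member was that of Hcn4 (r = -0.85, rho = -0.82, adjusted permutation p = 0.000195, r = -0.80 without the 2 farthest mice), and the group values of r ran from -0.96 to -0.79. Cacna1c (r = -0.73), Kcnh3 (-0.72), Cacna2d1 (-0.69), Cacna1g (-0.60), Cacnb3 (-0.59) and Cacna1h (-0.59) were the other negative ones. On the positive side stood Scn4b (r = 0.78), Cacna2d2 (0.77), Kcna1 (0.72), Hcn2 (0.64), Scn1a (0.58), Kcnc1 (0.57) and Scn2b (0.48). Kcna1 is an axonal channel at the edge of the node, under the myelin that oligodendrocytes make. The other Kv1 members, Kcna2 among them, and Scn8a, the pore of nodes, were not among the relations with this score.

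The interneuron and oligodendrocyte scores themselves correlated over the mice (r = 0.54, rho = 0.57, permutation p = 0.00149 and 0.000740, adjusted over 6 relations 0.00552 and 0.00444, r = 0.62 without the 2 farthest). Their shares in the members' variation were not separated. The oligodendrocyte score ran from 3.15 to 7.39 over the mice. Its group means ran from 4.64 ± 1.17 in WT vehicle to 5.27 ± 1.19 in WT IMN (SD). The distance between these means was below the SD of each group. The WT vehicle mean includes replicate 1 at 7.00, and the medians of these groups, 4.36 and 5.52, lay farther apart.

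**Figure D4:**
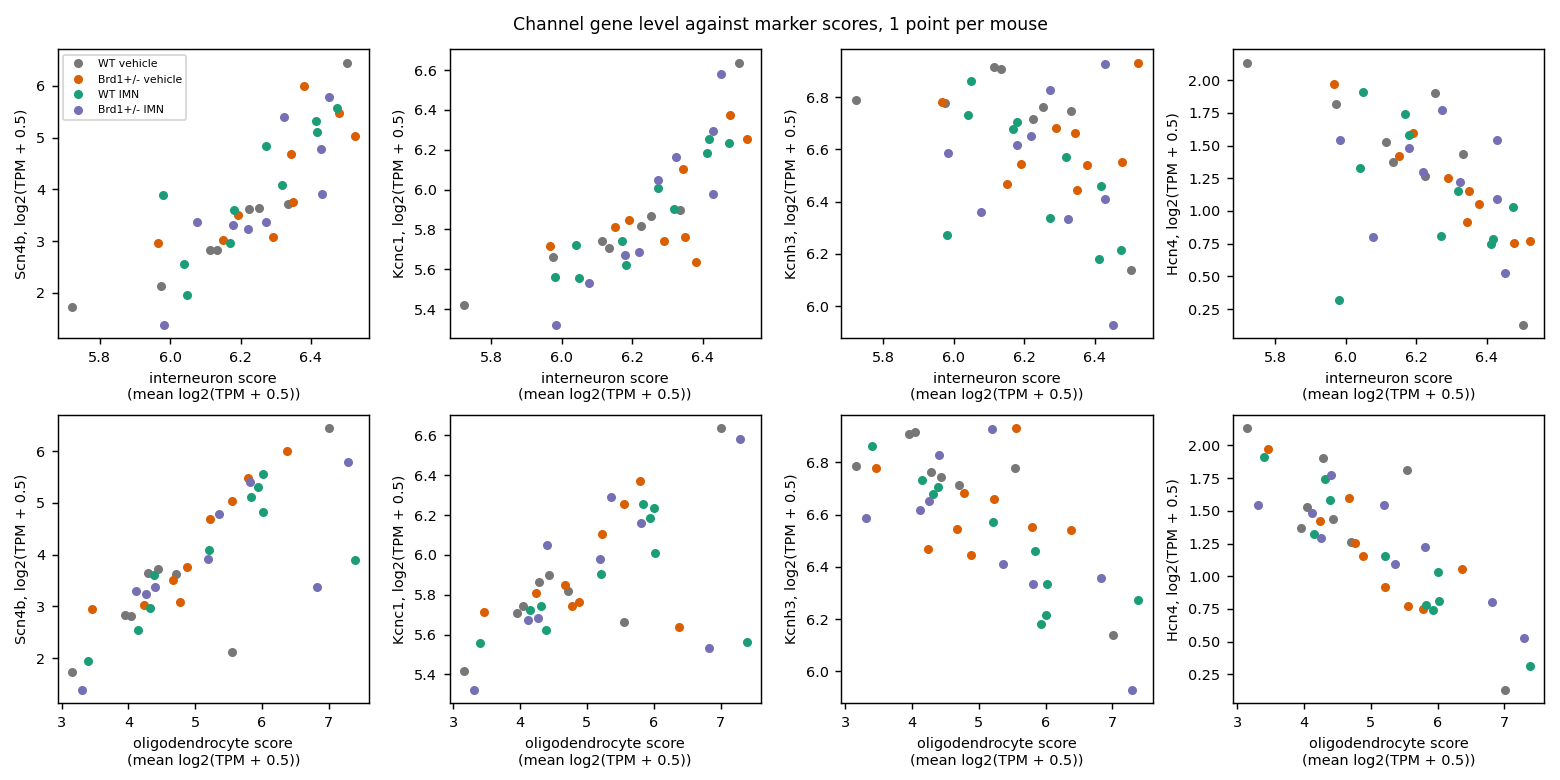
Log2(TPM + 0.5) of Scn4b, Kcnc1, Kcnh3 and Hcn4 against the interneuron score (top) and the oligodendrocyte score (bottom), both as mean log2(TPM + 0.5) of their markers, 1 point per mouse, coloured by group. Scn4b climbs with both scores (r = 0.84 and 0.78), Hcn4 declines with the oligodendrocyte score (r = -0.85), and colours are mixed along each cloud.

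With the immediate-early score 7 members correlated positively and 2 negatively, and 12 of 39, 30.8%, reached 0.5 in size against 6.92% of all genes. Cacnb3 (r = 0.69, rho = 0.56), Kcnh3 (r = 0.66, rho = 0.50) and Cacnb1 (r = 0.66, rho = 0.49) led, with adjusted permutation p from 0.000240 to 0.00169 for r and from 0.00475 to 0.0200 for rho. Without the 2 farthest mice r was 0.58, 0.44 and 0.52. Hcn4 (r = 0.62), Cacna1h (0.59), Cacna1g (0.59) and Cacna1c (0.55) followed, and Kcna1 (-0.62) and Scn4b (-0.60) were the negative ones. Without WT vehicle replicate 1, the counts were 4 positive and 1 negative. With the striatal score 2 members correlated, Cacna2d2 (r = 0.48) and Kcna6 (r = 0.44), and 4 without Brd1+/- vehicle replicate 6, and 3.32% of all genes but no member reached 0.5 in size.

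Between the members themselves 741 pairs were correlated in the same way, and 116 positive and 29 negative pairs passed both adjusted tests. An r of at least 0.5 in size was found for 19.3% of the members' pairs, against 5.56% of pairs among the 14831 tested genes in the members' range of levels and 2.98% of pairs among all tested genes. The strongest was that of Scn1a and Kcnc1, whose promoter windows are printed above (r = 0.91, rho = 0.85, adjusted permutation p = 0.000256 and 0.000370, r = 0.86 without the 2 farthest mice). It was followed by Kcnc1 with Hcn2 (r = 0.88), Scn4b with Cacna2d2 (0.88), Cacna1g with Cacnb3 (0.85), Scn4b with Hcn2 (0.84), Scn4b with Kcnc1 (0.83) and Cacna1h with Hcn4 (0.83). A sodium pore, its beta subunit, a Kv3 channel and an HCN channel thus varied together from mouse to mouse.

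Another set had the opposite sign. Cacna1c, Cacna1g, Cacna1h, Cacnb3, Cacna2d1, Kcnh3 and Hcn4 were the 7 genes whose negative r to the oligodendrocyte score passed both adjusted tests. The strongest negative pairs were Kcna1 with Kcnh3 (r = -0.81), Scn4b with Cacna1c (-0.76), Scn4b with Hcn4 (-0.75), Cacna1c with Hcn2 (-0.73) and Scn3a with Hcn2 (-0.72). Hcn2 and Hcn4, of 1 family, thus lay in opposite sets. The median r was 0.06 over the 44 pairs within a subfamily and 0.14 over pairs of different subfamilies, and 11 of the 44 passed both tests with a positive sign and 2 with a negative sign.

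**Figure D5:**
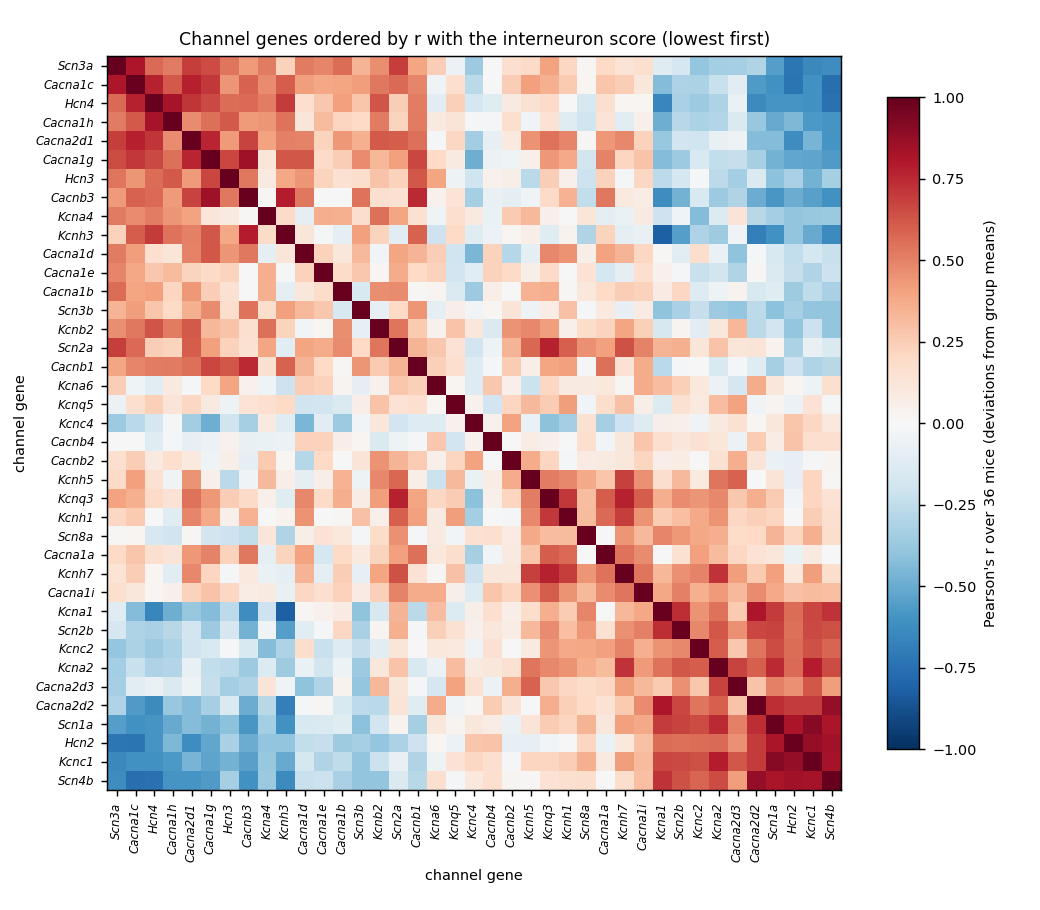
Pearson's r between each pair of the 39 channel genes over 36 mice, from deviations from group means, with genes ordered by their r with the interneuron score, lowest first. A red block at the lower right holds Scn1a, Hcn2, Kcnc1 and Scn4b (r up to 0.91), a red block at the upper left holds Cacna1c, Cacna1h and Hcn4, and blue between them marks opposite variation, as in Scn4b with Hcn4 (r = -0.75).

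Of the other genes of these families 50 were found in the table and 42 tested. None passed the adjusted test in any of the 7 comparisons. Between genotypes, an unadjusted p under 0.05 was found for 0 of the 42 with vehicle (3.75% of all genes), 3 under IMN (3.23%) and 2 with treatments pooled (3.62%). Between treatments it was found for 2 in Brd1+/- mice (5.52% of all genes), 5 in WT mice (6.60%) and 4 with genotypes pooled (9.38%), and in the interaction for 0 (3.20%). All 4 of the pooled IMN genes were lower under IMN. The smallest p belonged to Kcnh4, an ether-à-go-go channel of the same group as Kcnh3, at 20.5 TPM with vehicle and 15.9 TPM under IMN (log2 fold change -0.40 ± 0.12, SE, limma unadjusted p = 0.00218, adjusted p = 0.169). Kcnv1, a silent subunit that modifies Kv2 channels, followed at 48.6 and 39.3 TPM (-0.32 ± 0.10, limma unadjusted p = 0.00344, adjusted p = 0.208). Cacna1f came next at 0.277 and 0.0975 TPM (-0.33 ± 0.12, limma unadjusted p = 0.00763, adjusted p = 0.288), a level too low to be read closely.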

How the data were processed

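RNA from aCC punches of 36 mice was sequenced on a BGISEQ-500. The authors trimmed reads, aligned them to GRCm38 with HISAT2 2.1.0, quantified genes with StringTie 1.3.4 and deposited TPM, scaled by the authors to the total of each library. Column totals ran from 999727 to 999889. TPM keeps no depth, so counting error is unknown and the error of each value is the spread between mice. Strand use is not given in the sources used here. No column lacked a sample (0).

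Groups came from the labels. TPM were tested as log2(TPM + 0.5), which understates differences of low genes, with limma 3.58.1 in R 4.3.3 (empirical Bayes with trend) over genes that reached 0.1 TPM in 8 or more libraries. Comparisons of 2 groups used their own libraries, and the interaction and the pooled comparisons used all 36. Limma was checked on simulated data. Single members were also tested by exact permutation, and pooled comparisons and correlations with 100000 draws in Python 3.11.15 (numpy 2.4.6, scipy 1.17.1, pandas 2.3.3, matplotlib 3.10.9). The smallest p these draws can give is 1e-05. P-values measure the spread between libraries, and each library is labelled as a separate sample. Members, gene lists and tests were chosen with earlier results of these data known. Values were printed for the highest and lowest member of each subfamily, up to 5 members per comparison by smallest p, the members of largest and smallest spread, values far from their group, and members in the strongest correlations; the last were chosen after their values were seen. Alternatives covered the pseudocount, filter, scaling, weights, trend, covariates, fit over all libraries, replicate block and leaving out libraries. Each library was left out in turn only in the comparisons of 2 groups. The interaction and the pooled comparisons were refitted only without WT vehicle replicate 1 or without Brd1+/- vehicle replicate 6.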

Additional observations from a re-analysis of the deposited data

Results flagged for a closer look

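Of 156 sets of values (39 genes in 4 groups), 24 held a highest or lowest library whose gap to the nearest other, over the group's range, exceeded Dixon's critical value. Chance flags about 1 in 20 groups, and members that vary together are flagged together. The rate over all tested genes was not computed, so the 24 are not a result about channel genes as a set.

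WT vehicle replicate 1 gave 12 of the 24. It was above the rest of its group for Scn1a (65.8 TPM, others up to 31.2), Scn4b (86.8 TPM, others up to 12.7), Cacna2d2 (25.7 TPM, others up to 12.9), Kcna1 (83.5 TPM, others up to 26.1), Kcnc1 (99.1 TPM, others up to 59.1) and Hcn2 (96.6 TPM, others up to 69.2). It was below the rest for Cacna1h (13.1 TPM, others from 33.9), Cacnb3 (141.6 TPM, others from 180.6), Kcna4 (5.04 TPM, others from 6.63), Kcnb2 (2.42 TPM, others from 5.03), Kcnh3 (70.0 TPM, others from 104.5) and Hcn4 (0.593 TPM, others from 1.90). The library's interneuron score was the highest of its group and its immediate-early score the lowest.

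Brd1+/- IMN replicate 6 lay below its group for Cacna1g (40.1 TPM, others from 101.1), Cacnb3 (67.9 TPM, others from 146.8) and Cacna2d1 (48.1 TPM, others from 76.4). Brd1+/- vehicle replicate 7 lay below its group for Scn3a (5.47 TPM), Scn2b (55.3 TPM) and Cacna1b (11.7 TPM). The remaining values, all below the rest of their group, were Cacnb3 in Brd1+/- vehicle replicate 6 (138.9 TPM), Cacnb4 in WT vehicle replicate 8 (20.1 TPM) and in Brd1+/- vehicle replicate 2 (28.6 TPM), Scn8a in WT IMN replicate 8 (45.9 TPM), and Kcnq5 in WT vehicle replicate 2 (15.7 TPM) and WT IMN replicate 7 (32.8 TPM).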

How the results depend on the processing

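No member passed the adjusted test in any of 152 recomputed counts, all 760 recomputed fold changes of named members kept their direction, and the lowest adjusted p of a named member was 0.123. The named members were those of smallest p in the same mice. Each recomputation reused all or most of these mice, so a change of direction was unlikely. All 152 medians moved by less than the spread between mice. That spread, 0.14 on the log2 scale, exceeded each main median in size, so this check could hardly fail. Counts at an unadjusted p under 0.05 are small and moved easily, and the cause was not tested. For genotype with vehicle (2) the count was 1 with no filter, without the trend, with covariates (scores of striatal and oligodendrocyte markers) and with all 36 libraries in one fit, 3 with array weights and with the replicate block, and 0 to 8 leaving out 1 library (8 without WT vehicle replicate 1, and 0 without WT vehicle replicate 4 or 7 or Brd1+/- vehicle replicate 6 or 7). For genotype under IMN (2) it was 1 with median-ratio or quantile scaling and with all 36 libraries, and 1 to 3 leaving out 1. For IMN in Brd1+/- mice (0) it was 1 with quantile scaling, array weights and all 36 libraries, 3 with the covariates, and 0 to 2 leaving out 1. For IMN in WT mice (2) it was 6 with array weights, 1 without the trend and with the covariates, 1 to 9 leaving out 1 (9 without WT vehicle replicate 1, and 4 without WT IMN replicate 1, 4, 9 or 10), and 2 higher and 1 lower after median-ratio or quantile scaling. The interaction (1) gave 2 with array weights and with the covariates, pooled IMN (3) gave 4 with array weights and 3 to 7 without either of 2 libraries, with 1 higher and 1 lower after median-ratio or quantile scaling, and pooled genotype (1) gave 3 with the covariates and 0 to 2.

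Replicate numbers did not pair the mice: deviations of same-numbered libraries correlated above 0.1 in 1 of 9 pairs of the IMN groups and in none of the others. With the replicate block the count was 3 for genotype with vehicle, 5 for IMN in WT mice, 4 for pooled IMN and 2 for pooled genotype, and the block left every adjusted count at 0. Among relations to scores, recomputed after the data were seen, the counts without 1 of 3 libraries ran from 3 to 7 (interneuron, negative), 4 to 7 and 1 to 2 (immediate-early, positive and negative) and 3 to 4 (striatal, positive). TPM keeps no depth, which limits what can be said of Hcn4 and other low genes.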
